A study of Mus musculus with 2 samples.

Results

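The 7 genes described here encode cytokine receptor chains of T cells. Il7r encodes the IL-7 receptor alpha chain, Il2ra, Il2rb and Il2rg encode the alpha, beta and common gamma chains of the IL-2 receptor, Il18r1 and Il18rap encode the chains of the IL-18 receptor, and Ifngr1 encodes the ligand-binding chain of the interferon gamma receptor. They were taken by gene symbol, and each was present among the 12798 genes of a single-cell table of UMI counts (a UMI marks 1 captured transcript). The table held 8562 CD8 T cells of colon lamina propria, taken in the T cell transfer model of colitis. The group called Crep was read as cells from Bcl6fl/fl Cd8aCre donors, in which Cre recombinase made under Cd8a control acts on a Bcl6 gene flanked by loxP sites. The group called Cren was read as cells from Bcl6fl/fl donors, which carry the same loxP sites without Cre. No source used here spells these names out. In both groups splenic CD8 T cells were given together with wildtype naive CD4 T cells to Rag1 KO mice, which lack T and B cells of their own but keep innate cells. The mice were 8 to 12 weeks old, and the cells were taken 6 to 10 weeks after transfer. Each group had 4 hashtags, antibody tags that mark the cells of 1 source before pooling. The hashtag was the replicate, and no source says that each was a separate mouse, so p-values measure the spread between hashtags, which may be technical.

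IL-7 keeps resting and memory T cells alive through a receptor of the Il7r and Il2rg products, and Il7r transcription falls when T cells become effector cells. IL-2 and IL-15 share the Il2rb and Il2rg chains, while Il2ra gives high affinity for IL-2 and appears on recently activated cells. These receptors signal through JAK1 and JAK3 to STAT5. IL-18, which epithelial and myeloid cells of the gut release during inflammation, binds the Il18r1 product, and the Il18rap product completes a receptor that signals through MyD88 to NF-kB and raises interferon gamma output. Interferon gamma binds the Ifngr1 product, which works with Ifngr2 through JAK1 and JAK2.

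The genes lie at separate places of the mouse genome except for the IL-18 receptor pair. In the RefSeq annotation of GRCm38, Il7r spans chr15:9506159-9529941, Il2rb chr15:78479256-78511621, Il2ra chr2:11642792-11693194, Il2rg chrX:101264385-101268255 and Ifngr1 chr10:19591949-19610229. Il18r1 spans chr1:40465552-40500854 and Il18rap chr1:40515362-40551707, with 14507 bases between them. Among their neighbours in this cluster of IL-1 receptor family genes, Il1r2, Il1rl2 and Il1rl1 had 2.34, 1.95 and 0.976 CPM (UMIs scaled to 1000000 in all) over all cells.

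RefSeq promoter windows of GRCm38.p6, from 250 bases before to 50 after a transcription start, were given for 6 of the 7 genes. STAT5 and BCL6 are both known to bind sites of the form TTCNNNGAA, which reads the same on both strands. This motif was found in a window of Il7r and in 1 of the 3 windows of Il18r1, and in 8.30% of 32851 windows over all genes. The FOXO core GTAAACA, searched on both strands, was in no window of these genes and in 3.65% of all windows. These are matches of letters and not measured binding. The windows of these genes that hold the motif are shown, with the motif matches in capitals and each sequence given on the strand of its gene. The Il7r window is chr15:9529827-9530126 on the minus strand, and the Il18r1 window is chr1:40465756-40466055 on the plus strand, inside the annotated gene, at a downstream start.
Il7r: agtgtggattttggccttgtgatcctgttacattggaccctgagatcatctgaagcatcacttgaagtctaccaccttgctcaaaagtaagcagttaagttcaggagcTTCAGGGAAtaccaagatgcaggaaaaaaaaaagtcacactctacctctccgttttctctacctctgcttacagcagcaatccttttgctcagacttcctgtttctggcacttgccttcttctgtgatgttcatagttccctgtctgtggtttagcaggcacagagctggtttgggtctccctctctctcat
Il18r1: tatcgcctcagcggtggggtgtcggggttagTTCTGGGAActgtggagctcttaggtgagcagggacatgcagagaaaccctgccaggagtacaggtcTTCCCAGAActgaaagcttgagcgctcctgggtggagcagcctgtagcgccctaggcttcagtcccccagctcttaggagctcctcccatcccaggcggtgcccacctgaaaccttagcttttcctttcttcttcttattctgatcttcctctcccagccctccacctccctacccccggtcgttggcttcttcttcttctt

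The 4 Crep hashtags held 4157 cells with 12287132 UMIs and the 4 Cren hashtags 4405 cells with 13327631 UMIs, between 2635241 and 4201265 UMIs per hashtag. The median was 2714 UMIs per Crep cell and 2812 per Cren cell. Cell names were unique and the annotation gave each 1 hashtag, which is no check of the hashtag calls. CD8 T cell markers (Cd8a, Cd8b1, Cd3e, Cd3d, Trac, Trbc2) summed to between 4940 and 5835 CPM in Crep and between 4746 and 5353 CPM in Cren hashtags. Markers of CD4 T cells summed to between 22.4 and 34.3 CPM in Crep and between 30.3 and 80.7 CPM in Cren hashtags. Cd4 itself went against this sum, with 5.70 to 9.12 CPM in Crep and 0 to 0.622 CPM in Cren hashtags (TMM-scaled, log2 fold change 4.36, edgeR adjusted p = 0.000515). The summed level of 8 cytotoxic markers did not overlap, at 9656 to 13979 CPM in Crep and 3594 to 8187 CPM in Cren hashtags, and that of 7 exhaustion markers did not overlap in the other direction, at 468 to 628 CPM in Crep and 641 to 747 CPM in Cren hashtags. Of single genes in these lists, the NK receptor gene Klrd1 rose by 0.56 and the ectonucleotidase gene Entpd1 by 1.04 on the log2 scale (edgeR adjusted p = 0.0494 and 0.0303), while Pdcd1, which encodes the inhibitory receptor PD-1, fell by 1.59 (adjusted p = 0.0031). The exhaustion list was mixed in sign. Of its 7 genes, 3 were higher in Crep, against their sum: Entpd1, Havcr2 (log2 fold change 1.56) and Lag3 (0.20). Bcl6, the targeted gene, had 31.9, 30.6, 30.9 and 24.3 CPM in the Crep hashtags, against 16.6, 17.4, 15.6 and 20.7 CPM in the Cren hashtags (log2 fold change 0.75, edgeR adjusted p = 0.0293). The deleted part of Bcl6 is not given in the sources used here, so these 5′ counts do not check the deletion, and directions below refer to the hashtags labelled Crep and Cren. The median mitochondrial share per cell was 0.615 to 0.65% in Crep and 0.67 to 0.805% in Cren hashtags. The part of these differences in the results below was not tested.

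None of the 7 receptor chains passed the test between Crep and Cren over all cells. In edgeR's quasi-likelihood test with Benjamini-Hochberg adjustment, 59 of 9653 genes tested (0.611%) passed at 0.05, and 0 of the 7 chains, with 0 of 7 also in DESeq2. At an unadjusted p under 0.05 stood 0 of the 7 chains, beside 1076 of all 9653 genes (11.1%). The values of the groups overlapped for 7 of 7 chains, while 647 of all 9653 genes (6.7%) had groups that did not overlap. In CPM scaled by TMM factors, the log2 fold changes of the chains, Crep minus Cren, lay between -0.36 and 0.16, beside a median of -0.00 over all genes tested.

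**Figure D1:**
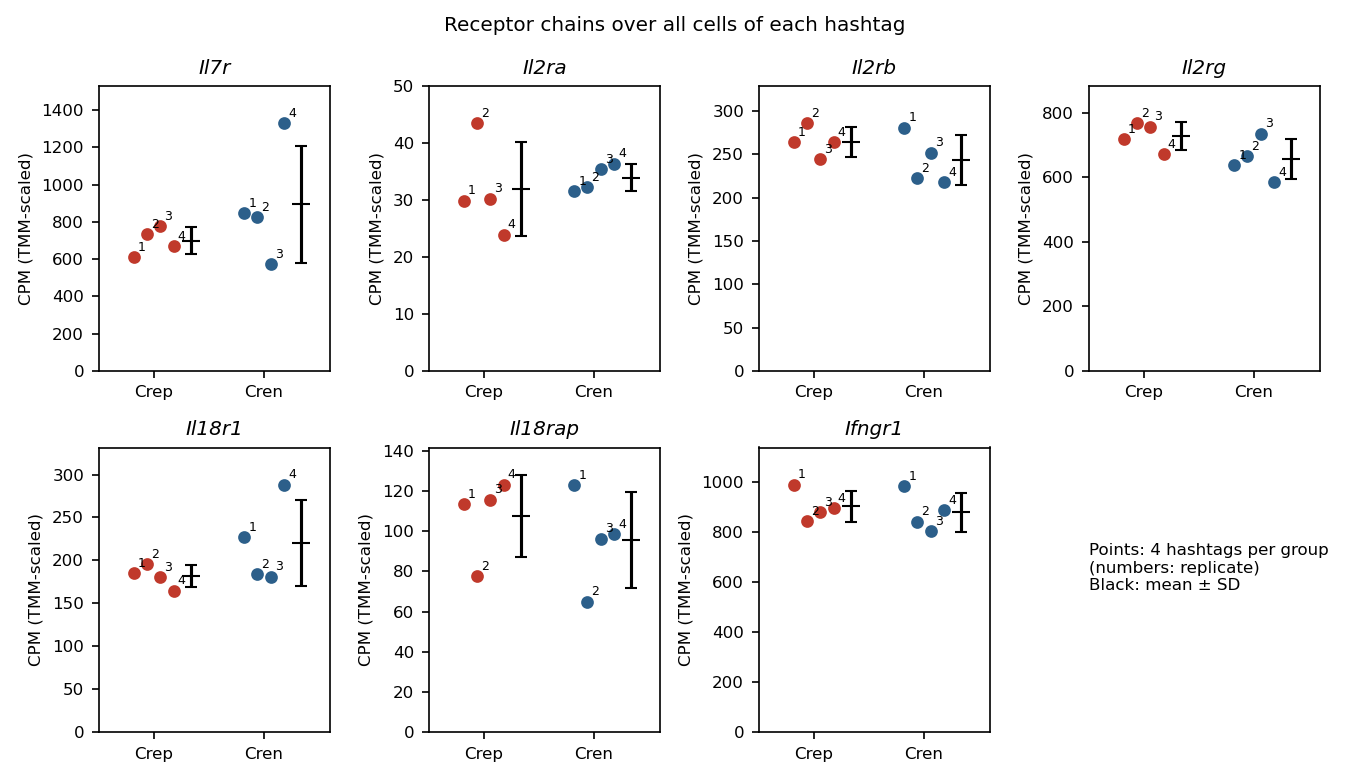
CPM of each receptor chain over all cells of a hashtag (y axis, TMM-scaled, from 0) for 4 Crep and 4 Cren hashtags, with replicate numbers and the mean ± SD. The groups overlap in every panel, and the widest spread in Il7r comes from the Cren group, between 575 and 1329 CPM.

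Il7r had 612, 733, 776 and 668 CPM in the Crep hashtags 1 to 4, against 848, 823, 575 and 1329 CPM in the Cren hashtags 1 to 4. The Crep values lay close together, and the Cren group held the lowest and the highest of the 8. The log2 fold change was -0.36 (SE 0.25, 95% interval -0.94 to 0.23, edgeR adjusted p = 0.686). Leaving out 1 hashtag gave from -0.52 without Cren 3 (unadjusted p = 0.0183, adjusted p = 0.254 in edgeR) to -0.11 without Cren 4. Cren 4 also had the highest share of ribosomal protein UMIs, with a median of 23.7% per cell, against 17.8% to 19.55% in the other hashtags. With fine clusters 0, 1, 2, 3 and 6, those with at least 20 cells in all 8 hashtags, weighted equally in each hashtag, the log2 fold change was 0.06 (limma on log2(CPM + 10)). This fit leaves out the other 7 clusters, described further on. In summed counts, fewer cells of a type and less RNA per cell cannot be told apart.

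None of the IL-2 receptor chains differed between the groups beyond the spread between hashtags. Il2ra, the inducible alpha chain, had 29.9, 43.5, 30.3 and 23.9 CPM in Crep, against 31.6, 32.3, 35.5 and 36.4 CPM in Cren hashtags, from 63 to 148 UMIs per hashtag. Crep 2 was the highest and Crep 4 the lowest of the 8, and the log2 fold change was -0.07 (SE 0.15, 95% interval -0.40 to 0.25). Il2rb, the beta chain shared with the IL-15 receptor, had 264, 286, 244 and 264 CPM in Crep, against 281, 223, 252 and 218 CPM in Cren hashtags. Its log2 fold change was 0.12 (SE 0.090, 95% interval -0.07 to 0.31), with Cren 1 as high as the Crep group, and it was 0.067 without Cren 4 and 0.19 without Cren 1. Il2rg, the common gamma chain, had 718, 767, 757 and 673 CPM in Crep, against 639, 665, 735 and 584 CPM in Cren hashtags. It had the smallest SE together with Ifngr1, and its log2 fold change of 0.15 (SE 0.084, 95% interval -0.03 to 0.33, edgeR adjusted p = 0.538) came closest to the test among the chains with a higher mean in Crep. It was 0.099 without Cren 4.

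The IL-18 receptor chains differed in sign. Il18r1, the ligand-binding chain, had 185, 196, 180 and 165 CPM in Crep, against 228, 184, 181 and 288 CPM in Cren hashtags. The Crep hashtags lay close together, and Cren 4 was again the highest. The log2 fold change was -0.28 (SE 0.14, 95% interval -0.57 to 0.02, unadjusted p = 0.0678 and adjusted p = 0.495 in edgeR). It was -0.13 without Cren 4, -0.13 without fine cluster 7 and 0.04 with the 5 clusters weighted equally. In the other direction, it was -0.35 without Cren 2 and -0.36 without Cren 3 (unadjusted p = 0.0185 and 0.0168, adjusted p = 0.383 and 0.248 in edgeR). Il18rap, the accessory chain, had 113, 77.6, 116 and 123 CPM in Crep, against 123, 64.96, 96.3 and 98.5 CPM in Cren hashtags. Crep 2 and Cren 2 were the lowest of their groups, and the log2 fold change was 0.16 (SE 0.21, 95% interval -0.32 to 0.64). It was 0.01 to 0.31 when each hashtag was left out in turn.

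Ifngr1 had 989, 843, 879 and 896 CPM in Crep, against 982, 841, 804 and 886 CPM in Cren hashtags. The groups covered nearly the same range. Its log2 fold change was 0.04 (SE 0.084, 95% interval -0.14 to 0.22, edgeR adjusted p = 0.928), and the interval leaves out a rise or fall by more than 0.22 on the log2 scale.

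The share of cells with at least 1 UMI was compared after thinning each cell to 2000 UMIs, which kept 3171 Crep and 3468 Cren cells and left out 986 and 937 shallower ones. Il18r1 was detected in 26.1, 27.8, 26.7 and 26.7% of Crep cells, against 32.7, 29.1, 29.3 and 42.9% of Cren cells, by hashtag. These groups did not overlap, which was so for 1 of the 7 chains and for 6.04% of the 9653 genes, with means of 26.8% ± 0.705 and 33.5% ± 6.48 (SD, n = 4, exact two-sided permutation p = 0.0286, the smallest that 4 against 4 allow). The exact p was 0.143 after thinning to 1000 UMIs and 0.229 without thinning, where the Il18r1 share was 35.5% ± 4.21 in Crep and 41.7% ± 6.95 in Cren hashtags. It was 1 of 7 such tests, with no adjustment. For Il7r the share was 58.4, 64.1, 65.8 and 57.0% in Crep hashtags, against 70.2, 70.6, 57.3 and 83.7% in Cren hashtags (exact permutation p = 0.171). Without thinning its means were 67.9% in Crep and 76.6% in Cren. For the other chains the exact p lay between 0.143 and 0.743. Mean shares for Il2rb were 39.5% (Crep) and 35.8% (Cren), for Il2rg 74.6% (Crep) and 71.8% (Cren), and for Ifngr1 79.3% (Crep) and 75.9% (Cren). Those for Il2ra were 5.61% (Crep) and 6.27% (Cren), and those for Il18rap 16.9% (Crep) and 16.1% (Cren). The table holds no cell type known to lack these genes, so the share that free RNA alone would give was not measured.

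Across 9 of the authors' fine clusters the highest level of a chain was 1.32 to 4.60 times its lowest. This is a ratio of extremes picked by level. It cannot be compared in size with the fold between the groups over all cells, which was 0.781 to 1.12. The annotation held 12 fine clusters, made from the same counts, so their levels are a description with no test. CPM here uses plain totals, pooled over all cells of a cluster. The 9 clusters compared had at least 20 cells in 3 or more hashtags. The highest and lowest clusters named below were picked among these 9. For each of the 7 chains the hashtag ranges of its highest and lowest cluster did not overlap. These clusters were picked by their levels, and the share of all genes with such ranges was not computed. The ranges therefore show no trait particular to the chains. Neighbours in the order of levels overlapped in 8 of 8 pairs for each chain.

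**Figure D2:**
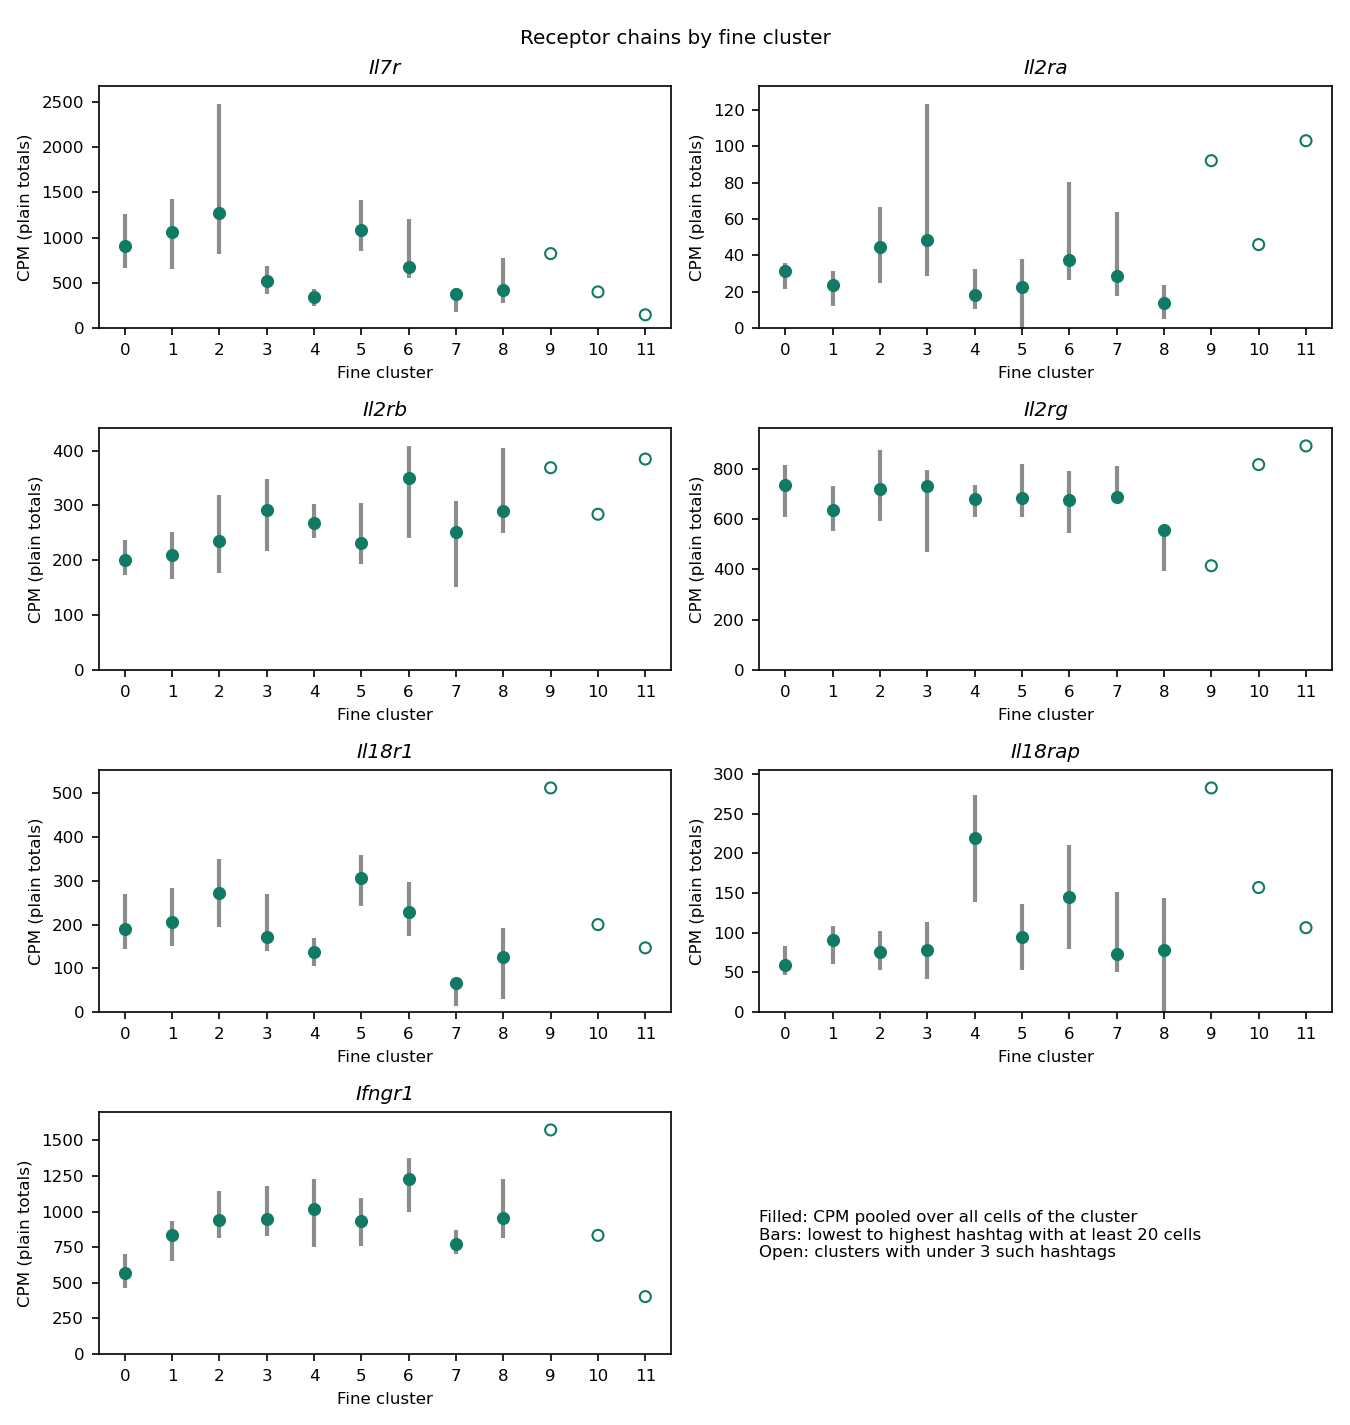
CPM of each receptor chain (y axis, plain totals, from 0) in fine clusters 0 to 11. Filled points are pooled over the cells of a cluster with bars from the lowest to the highest hashtag, and open points mark clusters with under 3 hashtags of at least 20 cells. Il7r stands between 904 and 1272 CPM in clusters 0, 1, 2 and 5 and between 345 and 526 CPM in clusters 3, 4, 7 and 8.

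Il7r was highest in cluster 2 (1272 CPM, hashtags from 816 to 2480), with Ahr, Furin and the integrin gene Itgae among its leading genes. Cluster 5, led by Tnfrsf25, Ifitm1 and the egress receptor gene S1pr1, had 1088 CPM, cluster 1, led by heat shock genes such as Hspa1a, had 1063 CPM, and cluster 0, led by Itgae and Cd7, had 904 CPM. The gene was lowest in cluster 4 (345 CPM, hashtags from 249 to 434), led by the effector genes S1pr5, Cx3cr1, Klrg1, Gzma and Zeb2. Cluster 7, with Havcr2 and Klrg1 among its leading genes, had 373 CPM, and cluster 8, led by Maf, Tox and Pdcd1, had 417 CPM. With hashtags weighted equally, cluster 7 was the lowest, at 295 CPM, and cluster 4 next, at 335 CPM. The ratio of highest to lowest was 3.68, and at 2000 UMIs 85.1% of cluster 2 cells and 40.5% of cluster 4 cells had a UMI. Cluster 4 held 748 Crep and 219 Cren cells, cluster 7 held 570 and 22, and cluster 8 held 53 and 448. Clusters 1 and 2, in contrast, held 367 and 370 Crep cells, against 819 and 778 Cren cells.

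Il18r1, like Il7r, had cluster 5 and cluster 2 at the top of its order. It was highest in cluster 5 (307 CPM, hashtags from 243 to 360) and cluster 2 (272 CPM) and lowest in cluster 7 (66.8 CPM, hashtags from 13.7 to 78.7), a ratio of 4.60. Cluster 7 held 64.7% of its cells from Crep 4. Il18rap, which must pair with the Il18r1 product, was ordered differently, with 219 CPM in cluster 4 (hashtags from 139 to 274), 144 CPM in cluster 6 and 59.3 CPM in cluster 0. Among the 9 clusters, cluster 4 thus had the highest level of the accessory chain, and it had 137 CPM of the ligand-binding chain.

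Among the IL-2 receptor chains, Il2ra was highest in cluster 3 (48.6 CPM, hashtags from 28.6 to 123), led by Rgcc, Socs2, Zfp683 and Gzmb besides T cell receptor segments, and lowest in cluster 8 (13.8 CPM, hashtags from 5.05 to 23.5). Il2rb was highest in cluster 6 (350 CPM), led by Nr4a1, Nfkbia and Serpinb9, and lowest in cluster 0 (201 CPM), a ratio of 1.74. Il2rg varied least among the 9 clusters, by a ratio of 1.32, with 735 CPM in cluster 0 and 557 CPM in cluster 8. Ifngr1 was highest in cluster 6 (1227 CPM, hashtags from 995 to 1377) and lowest in cluster 0 (568 CPM, hashtags from 461 to 706), a ratio of 2.16.

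The 3 smallest clusters had too few hashtags for a range. Cluster 9, of 119 cells, had a median of 1007 UMIs per cell and the highest median mitochondrial share, 2.04%. It showed 92.2 CPM of Il2ra, 369 CPM of Il2rb, 513 CPM of Il18r1, 282 CPM of Il18rap and 1573 CPM of Ifngr1, each above the 9 larger clusters. Its 415 CPM of Il2rg lay below those clusters. Cluster 11, of 73 cells led by Penk, Ccl1, Xcl1 and Tnfrsf9, had 103 CPM of Il2ra, 385 CPM of Il2rb and 891 CPM of Il2rg, the highest level of each gene over the 12 clusters, with 147 CPM of Il7r and 403 CPM of Ifngr1, the lowest of each. Cluster 10, of 112 cells, was 97.3% cells of Cren 3.

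Within single fine clusters no chain passed between the groups. Clusters 0, 1, 2, 3, 5 and 6 had at least 20 cells in 3 or more hashtags of each group. Of all genes tested there, 0.98% passed in cluster 0, 0.173% in cluster 1, 0.28% in cluster 2, 0% in cluster 3, 1.19% in cluster 5 and 0.0269% in cluster 6, against 0 of 7, 0 of 6, 0 of 7, 0 of 7, 0 of 6 and 0 of 6 chains (edgeR, Benjamini-Hochberg). In cluster 3, where no gene passed, 261 of 4548 genes and none of the chains had an unadjusted p under 0.05. Il2ra did not pass the count filter in clusters 1, 5 and 6.

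**Figure D3:**
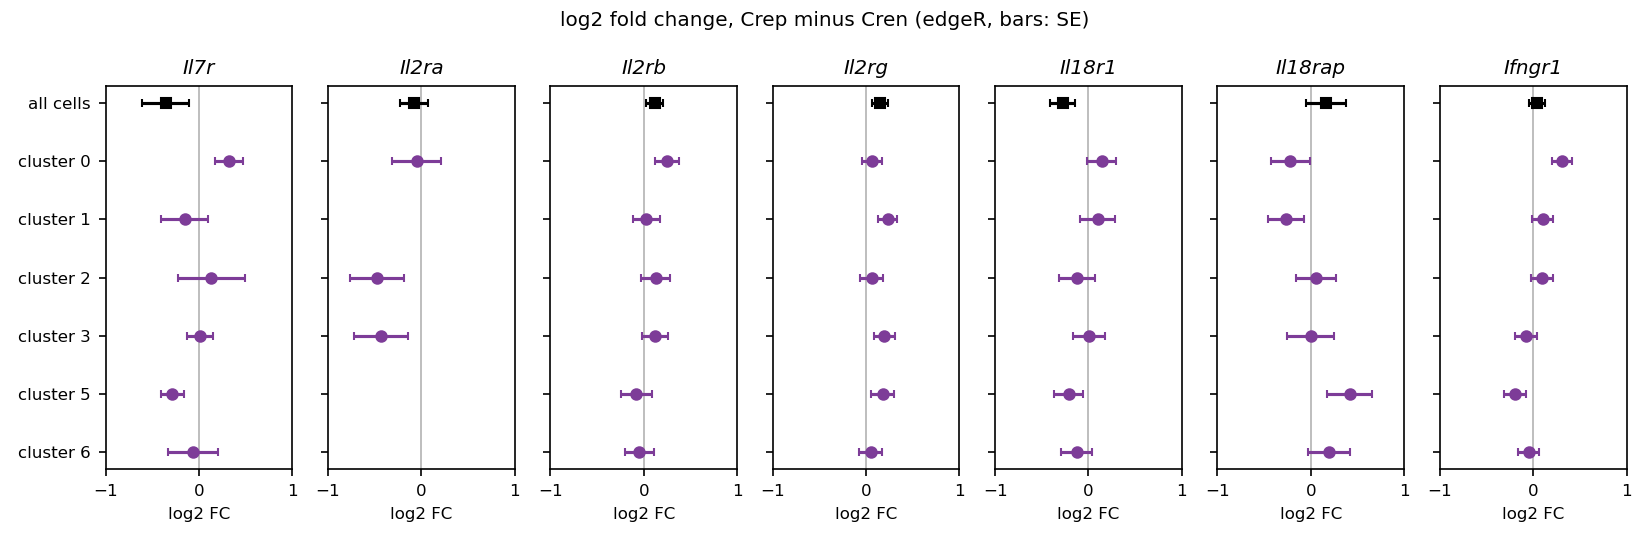
log2 fold change of each receptor chain, Crep minus Cren (x axis, bars give the SE), over all cells (black squares) and in the 6 testable fine clusters (purple circles). Il7r is at 0.32 in cluster 0 and -0.28 in cluster 5, and Il2rg lies right of 0 in each row.

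The smallest unadjusted p-values of the chains were those of Ifngr1 in cluster 0, Il7r in cluster 5 and Il2rg in cluster 1. In cluster 0 the log2 fold change of Ifngr1 was 0.31 (SE 0.11, unadjusted p = 0.0082 and adjusted p = 0.277 in edgeR). Of the 9 clusters compared by level, cluster 0 had the lowest Ifngr1. In cluster 5, with 3 Crep and 4 Cren hashtags, Il7r had 857, 996 and 990 CPM in Crep, against 1078, 1041, 1044 and 1421 CPM in Cren hashtags. The 3 Crep values lay below the 4 Cren values, as the groups of 9.79% of the genes tested in cluster 5 also did not overlap, with a log2 fold change of -0.28 (SE 0.12, unadjusted p = 0.0199 and adjusted p = 0.323 in edgeR). Il2rg in cluster 1 had a log2 fold change of 0.23 (SE 0.11, unadjusted p = 0.0354 and adjusted p = 0.743 in edgeR), and it was 0.05 to 0.23 in the 6 clusters. The Il2rg values of the groups did not overlap in cluster 1, where this held for 3.66% of genes tested and 1 of 6 chains, nor in cluster 3, where it held for 3.5% and 1 of 7 chains. In cluster 1 it had 703, 723, 732 and 691 CPM in Crep, against 609, 616, 642 and 552 CPM in Cren hashtags. In cluster 3 it had 759, 750.3, 748 and 794 CPM in Crep, against 677, 705, 712 and 471 CPM in Cren hashtags. Il18rap ran from -0.27 in cluster 1 to 0.41 in cluster 5, with an SE of 0.19 or more in each cluster. Il18r1 lay between -0.21 and 0.14 across the 6 clusters.

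The difference of the Crep effect between the 2 largest testable clusters passed for Il7r and for no other chain. These were cluster 1, with the heat shock genes Hspa1a and Dnajb1 among its leading genes, and cluster 0, with Itgae and Cd7 among them. Il7r had 998, 865, 1008 and 1263 CPM in Crep and 754, 754, 661 and 1092 CPM in Cren hashtags in cluster 0. In cluster 1 it had 649, 963, 940 and 1240 CPM in Crep and 1011, 944, 816 and 1425 CPM in Cren hashtags. Il7r was thus higher in cluster 1 than in cluster 0 in 4 of 4 Cren hashtags and in 1 of 4 Crep hashtags. The log2 ratio of cluster 1 to cluster 0 was -0.62, 0.15, -0.10 and -0.03 in Crep and 0.42, 0.32, 0.30 and 0.38 in Cren hashtags. The groups did not overlap, which was so for 3.7% of the 6703 genes tested on log2(CPM + 10) and for 1 of the 7 chains.

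**Figure D4:**
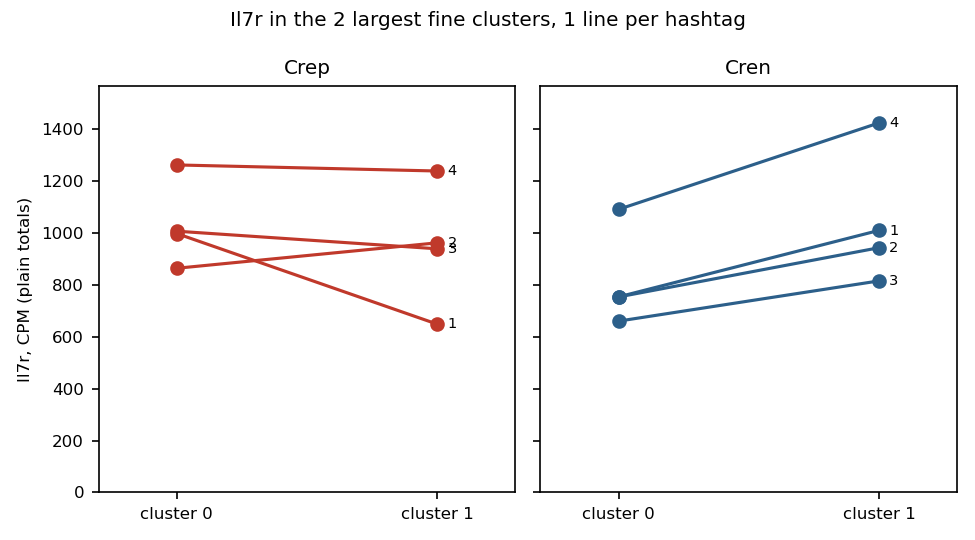
Il7r CPM (y axis, plain totals, from 0) in fine clusters 0 and 1, with 1 line per hashtag, Crep left and Cren right. The 4 Cren lines go up from cluster 0 to cluster 1, and of the Crep lines that of replicate 2 goes up.

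As an interaction term with the hashtag as a block, the effect in cluster 1 minus that in cluster 0 was -0.51 on the log2 scale for Il7r (SE 0.10, edgeR adjusted p = 0.0152). In this fit 9 of 6703 genes (0.134%) passed, and 1 of 7 chains. The values per hashtag averaged -0.15 ± 0.33 in Crep and 0.36 ± 0.05 in Cren (SD, n = 4 each). Their exact two-sided permutation p, computed for Il7r alone, was 0.0286, the smallest possible. Groups that do not overlap fix this value, so it adds no support to the interaction test. The call of the interaction test did not hold without Crep 1 (-0.37, adjusted p = 0.180), Crep 3 (-0.52, adjusted p = 0.122), Cren 1 (-0.49, adjusted p = 0.0567) or Cren 4 (-0.50, adjusted p = 0.0515), and held without each of the other 4. Within either cluster alone the test was not passed, with a log2 fold change of 0.32 (SE 0.15, adjusted p = 0.598) in cluster 0 and -0.15 (SE 0.25, adjusted p = 0.971) in cluster 1. For the other 6 chains the difference lay between -0.23 and 0.17, with an adjusted p of 0.90 or more.

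Detection of one chain beside another in the same cell was described at 2000 UMIs per cell, with no p, since cells of a hashtag share a library and the rate depends on the cluster. Il18r1 was detected in 34.2% of 4374 cells with Il7r and in 22.1% of 2265 cells without it, and the share in cells with Il7r was the higher one in 8 of 8 hashtags. Il2rb went the other way, at 35.6% of cells with Il7r and 42.0% of cells without it, and was the higher with Il7r in 1 of 8 hashtags. Il18rap was detected in 18.2% of cells with Il18r1 and 15.8% without it (higher in 8 of 8 hashtags). Il2rg, the partner of the Il7r and Il2rb products, differed little, at 72.6% with and 74.3% without Il7r, and 74.2% with and 72.6% without Il2rb.

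Across the 11 fine clusters of at least 100 cells, which share 1 library, the pattern of each chain was compared on log2(CPM + 10) with that of 2839 genes of at least 50 CPM, as a description. Among the chains, Il7r was most like Il18r1 (Pearson r = 0.69), Il2rb most like Ifngr1 (r = 0.84) and Il18rap most like Ifngr1 (r = 0.75), while Il2rg and Ifngr1 ran opposite (r = -0.68). The genes most like Il7r were Egr1, Mri1 and Trbv16 (r from 0.84 to 0.85). Those most like Il18r1 were Map4k2, Usp3 and Rora (r from 0.92 to 0.94), and those most like Il18rap were Slc25a40, Pced1b and Mtpn (r = 0.90 for each). For Ifngr1 they were Gramd3, Klf13 and 4930523C07Rik (r from 0.94 to 0.96), and for Il2rb they were Snx18, Serpinb9 and Mxd1 (r from 0.91 to 0.97). Il2ra was most like Riok1, Lamc1 and Appl1 (r from 0.93 to 0.98), and Il2rg most like Eif5a, Sept1 and Cox5a (r = 0.97 for each). Cluster 9, with its low depth, is 1 of the 11 points. Of these it had the lowest Il2rg (415 CPM) and the highest level of every other chain but Il7r, with 1573 CPM of Ifngr1. The values of r without cluster 9 were not computed.

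Genes around these receptors were read in the same fit over all cells, and none of them passed. Of 34 other interleukin and interferon receptor chains listed, 26 were in the table and 16 were tested, with 0 passing and a median log2 fold change of 0.03. The nearest were Il12rb1, a chain of the IL-12 receptor, with 36.8 ± 2.70 CPM in Crep hashtags and 25.3 ± 5.26 CPM in Cren hashtags (SD, n = 4 each, log2 fold change 0.53, edgeR adjusted p = 0.104), and Il4ra, of the IL-4 receptor, with 25.7 ± 2.00 CPM in Crep hashtags and 34.98 ± 6.86 CPM in Cren hashtags (-0.44, adjusted p = 0.214). Of 11 JAK kinases and STAT factors, 0 passed and 6 had an unadjusted p under 0.05, beside 1076 of all 9653 genes (11.1%). Stat4, which IL-12 activates, had 181 ± 9.81 CPM in Crep hashtags and 225 ± 13.3 CPM in Cren hashtags (-0.32, edgeR adjusted p = 0.0779), and Stat5b, which IL-2 and IL-7 activate, had 59.5 ± 5.76 CPM in Crep hashtags and 88.9 ± 21.1 CPM in Cren hashtags (-0.57, adjusted p = 0.107).

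Downstream of the IL-2 receptor, 0 of 13 STAT5 target genes passed, with a median log2 fold change of 0.11. An unadjusted p under 0.05 was found for 6 of the 13, beside 11.1% of all genes tested. Ccnd2, a D-type cyclin, had 122 ± 11.2 CPM in Crep hashtags and 82.9 ± 16.2 CPM in Cren hashtags (0.57, edgeR adjusted p = 0.0632), and Socs2, a feedback inhibitor, had 58.8 ± 16.1 CPM in Crep hashtags and 25.5 ± 9.19 CPM in Cren hashtags (1.18, adjusted p = 0.181). Of 23 interferon gamma target genes 22 were tested and 0 passed, and 8 of the 22 had an unadjusted p under 0.05. The sign was positive for 19 of the 22, and their median was 0.19 on the log2 scale, while it was positive for 4813 of all 9653 genes tested. The nearest were the immunoproteasome genes Psmb8, with 1259 ± 89.6 CPM in Crep hashtags and 1022 ± 123 CPM in Cren hashtags (0.30, adjusted p = 0.181), and Psmb9 (0.26, adjusted p = 0.269). Ifng itself had 273 ± 59.7 CPM in Crep hashtags and 325 ± 76.2 CPM in Cren hashtags.

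For the IL-18 receptor, 0 of 11 tested genes of its signalling chain passed, with Irak2 at -0.27 and Nfkb1 at -0.26 on the log2 scale nearest to the test. Of 10 factors tested that are known to control Il7r, 0 passed. The nearest was Tcf7, a factor of stem-like and memory T cells, with 66.6 ± 19.7 CPM in Crep hashtags and 153 ± 25.7 CPM in Cren hashtags (-1.19, edgeR adjusted p = 0.0914), followed by Nfkb1. Foxo1, which activates Il7r, had 81.7 ± 6.52 CPM in Crep hashtags and 90.3 ± 5.13 CPM in Cren hashtags. Of 10 ligands listed, 7 were in the table and 3 were tested with 0 passing. Il18bp, a soluble IL-18 inhibitor, was at 0.73 on the log2 scale, with 6.18 ± 1.16 CPM in Crep and 3.65 ± 0.801 CPM in Cren hashtags. Il2 was at -0.90, with 5.30 ± 3.17 CPM in Crep and 10.0 ± 4.08 CPM in Cren hashtags. Of 5 tested genes for endocytosis and shedding of receptors 0 passed, with Cblb, a ubiquitin ligase, at -0.29 (adjusted p = 0.105) and Stam at 0.27.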

How the data were processed

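Per the labels' protocols, cells were captured with a 10x Genomics 5′ kit, version 2, as 1 pooled gene-expression library with 1 hashtag library. The authors deposited raw UMI counts by gene and cell, whose sums matched the annotated totals for 100% of cells. Tools and build in the submitters' processing notes, which give no roles, are Seurat 4.3.0, Cell Ranger 7.0.0, bcl2fastq 2.20.0.422 and mm10. The authors also deposited the mitochondrial and ribosomal percent of each cell. No cell in the file had under 500 genes or over 3% mitochondrial UMIs. None was removed here, and doublets were not called. Hashtag, group and cluster of a cell came from the deposited annotation.

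Summed counts of each hashtag were compared with edgeR 4.0.16 (quasi-likelihood, TMM, filterByExpr, robust) over all genes, with Benjamini-Hochberg adjustment at 0.05. A cluster was tested where 3 or more hashtags of each group had 20 cells or more. The fit with a fixed cluster mix used limma 3.58.1 on log2(CPM + 10), averaged over clusters. Shares were compared by exact two-sided permutation (scipy 1.17.1) after thinning with a fixed seed. Alternatives included DESeq2 1.42.0. The edgeR script was tested on simulated data. R 4.3.3 and Python 3.11.15 were used. Values after ± are SDs over hashtags, and an SE, where given, is that of the log2 fold change beside it.

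The receptor chains and gene lists were chosen with earlier results of these data known. The genes named are the 7 chains, from each list the genes past the threshold or else the 2 with the smallest p, and for each chain the 3 genes with the highest Pearson r over clusters. Neighbouring genes, cluster-leading genes, marker genes past the threshold, Havcr2, Lag3, Bcl6, Foxo1 and Ifng were named beside that rule after their values were seen.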

Additional observations from a re-analysis of the deposited data

Results flagged for a closer look

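The Il7r effect, Crep minus Cren, differed between fine cluster 1 and fine cluster 0 by -0.51 on the log2 scale, by an interaction test in edgeR (adjusted p = 0.0152), with leave-one-out values from -0.59 to -0.37. It did not pass without Crep 1, Crep 3, Cren 1 or Cren 4.

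Of 105 groups of 4 hashtags looked at, 7 held a hashtag far from the other 3, and chance gives about 1 in 20. Il7r stood at 2480 CPM for Crep 4 in fine cluster 2 and at 1421 CPM for Cren 4 in fine cluster 5. Il2ra was low at 21.3 CPM for Crep 3 in fine cluster 0 and at 11.9 CPM for Crep 1 in fine cluster 1. Il2rg was low at 471 CPM for Cren 4 in fine cluster 3 and high at 814 CPM for Cren 3 in fine cluster 5. Ifngr1 was detected in 80.7% of cells of Cren 1 at 2000 UMIs, above the other Cren hashtags.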

How the results depend on the processing

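No receptor chain passed over all cells under any of the 16 alternatives, nor with at least 40 cells per hashtag in clusters 0, 1, 2, 3 and 6 (cluster 5 then had too few hashtags). The number of genes past the threshold, 59, was 145 with DESeq2, 118 with the replicate block, 27 with the cluster mix held fixed (clusters 0, 1, 2, 3 and 6 weighted equally, limma), 26 without fine cluster 7, and 14 to 121 when each hashtag was left out. Same-numbered hashtags deviated together with correlations from -0.04 to 0.18, and 3 of 4 correlated best with their own number, a hint from the data. As 1 pair was under 0.1, the numbers were not taken as pairs. With the replicate block Il2rg was 0.15 (unadjusted p = 0.0486, adjusted p = 0.383 in edgeR). The log2 fold change turned to 0.061 for Il7r and 0.036 for Il18r1 with the cluster mix held fixed. That fit includes cluster 2, where Crep 4 stood at 2480 CPM of Il7r. Within cluster 2 the Il7r log2 fold change was 0.13 with 4 Crep and 4 Cren hashtags. It was -0.13 with at least 40 cells per hashtag, which left 3 Crep and 4 Cren hashtags. Leaving out 1 hashtag gave -0.0088 to 0.092 for Ifngr1, 0.067 to 0.19 for Il2rb, 0.099 to 0.21 for Il2rg and -0.27 to 0.037 for Il2ra. For Il7r the range was -0.52 to -0.11, and for Il18r1 it was -0.36 to -0.13.

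In the difference between clusters 1 and 0, leaving out each hashtag gave -0.59 to -0.37 for Il7r and 3 to 13 genes past the threshold. The ranges were -0.36 to 0.14 for Il2ra, -0.14 to 0.052 for Il18r1 and -0.33 to 0.096 for Il18rap. The share of cells with Il18r1 differed by -3.09 percentage points at 1000 UMIs and by -6.21 without thinning, and that of Il2ra by 0.264 at 1000 UMIs. With hashtags weighted equally, 6 of 7 chains had the same highest cluster of the 9. Il2rg moved to cluster 2, and the lowest cluster moved for Il7r, to cluster 7. Leaving out fine clusters 7 and 9 and leaving out hashtags from the difference between clusters were chosen after seeing the data. With 4 hashtags per group, intervals of the log2 fold changes were 0.35 to 1.17 wide, and Il2ra rested on 63 to 148 UMIs per hashtag.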
